A study of Rattus rattus with 24 samples.

Results

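Mature oligodendrocyte receptors and cytoskeleton genes were followed in rat oligodendrocyte precursor cell (OPC) cultures exposed to T3, quetiapine or both. The 8 genes were named in advance of this description: Gpr37, Cdc42ep2, Myo1d, Tmtc1, Ppp1r14a, Ermn, Trf and Gjb1. They were chosen by results of these arrays, some for large rises in log2 expression at 96 hours, so their levels at 96 hours are given as a description without a test. A probe set of its own in the array's annotation was present for 7 of the 8, out of 14217 genes with such a probe set. The probe sets read were 1387182_at for Gpr37, 1389145_at for Cdc42ep2, 1388917_at for Myo1d, 1372583_at for Tmtc1, 1367813_at for Ppp1r14a, 1382382_at for Ermn and 1387145_at for Gjb1. The annotation used here has no probe set for Trf alone. The 2 probe sets that name Tf, the symbol for transferrin, also carry Srprb, and no value is given for them.

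An oligodendrocyte that leaves the precursor state stops dividing, extends branched processes and flattens them into membrane sheets that wrap axons. The sheet is shaped by actin, septins and myosins under the control of small GTPases such as Cdc42. Mature cells also carry receptors that set the pace of myelination, and they are joined to each other and to astrocytes by gap junctions made of connexins. T3 is the thyroid hormone that drives oligodendrocyte maturation in culture and in the brain, and quetiapine is an atypical antipsychotic.

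Each of 3 biological replicates supplied OPCs for every condition. The cells came from the cortex of rat pups aged 4 to 7 postnatal days, were selected with A2B5 microbeads and were expanded with PDGF at 20 ng/ml before treatment. Cultures then received vehicle alone (control), quetiapine at 1 μM, T3 at 45 nM, or the 2 compounds together at these doses (the combination) over 48 or 96 hours, and the medium and compounds were renewed at 48 hours. The methods give the vehicle as 0.1% DMSO. All groups, the control included, were kept in a medium with the B27 supplement, which holds a low amount of T3, and with transferrin. These are primary cultures without axons, and A2B5 selection leaves some other cells. RNA was read on 24 1-colour Affymetrix arrays, 3 in each of 8 groups, and all values are log2 expression, on which a difference of 1 is a doubling.

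The arrays were alike in overall level, with medians of 6.43 to 6.51, and arrays of the same group correlated with Pearson's r of 0.986 to 0.996 over all probe sets, values that are not independent of each other. Of 6 measured mature oligodendrocyte markers, 3 passed the test as higher in each treatment at 96 hours: Mog, Mobp and Mag. Mog, a protein of the outer myelin surface, differed from control by 3.85 with T3, 2.82 for quetiapine, and 4.71 for the combination. The summed level of the 6 markers, given as their mean, was 11.5 to 11.9 in the control arrays at 96 hours and 13.4 to 13.7 in the combination arrays. The mean of 6 precursor markers lay between 10.5 and 11.4 at that time, below the control of the same replicate by 0.31 to 0.37 in every replicate with T3 and by 0.25 to 0.40 with the combination. With quetiapine these differences were smaller, at −0.12, 0.001 and −0.057 in replicates 1, 2 and 3. The 6 genes were Pdgfra, Cspg4, Ptprz1, Olig1, Olig2 and Sox10. The paper counted Olig2-positive cells in every treatment, so the mean is not one of precursors alone. Single genes moved both ways, from −0.89 to 0.14 with T3, −0.43 to 0.40 with quetiapine and −0.92 to 0.38 with the combination. Ptprz1, a receptor phosphatase, was the one called, lower with the combination, and with the replicate as a block Pdgfra, the PDGF receptor of precursors, and Cspg4, the NG2 proteoglycan, were also lower with T3 and with the combination.

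Markers of other cells moved as well, and their part in the results was not tested. The mean of 5 astrocyte markers at 96 hours was 10.8 to 11.2 in control and 9.78 to 10.4 in the combination. Against the control of the same replicate this mean differed by −0.99, −0.46 and −0.73 with quetiapine in replicates 1, 2 and 3. With T3 it differed by −0.38, −0.05 and 0.03. Of the 5 markers, 1 passed the test as lower with quetiapine and 1 with T3, or 3 and 2 with the replicate as a block. Aldh1l1, Slc1a3 and Aqp4 fell with the combination, by 2.39, 1.46 and 1.07. Slc1a2, a glutamate transporter, went the other way and rose by 1.67 with T3 and 0.98 with the combination, while Gfap was not called. The 5 neuron markers ranged from 7.07 to 7.41 in control and from 6.64 to 6.96 in the combination, with Rbfox3 lower in each treatment. Microglia markers (5, means of 5.24 to 5.67) had no call at 96 hours, the 5 vascular and fibroblast markers (4.82 to 5.15) had a call for Pdgfrb alone, which was lower with the combination, and the 3 measured Schwann cell markers (5.49 to 6.84) had a call for Ngfr alone, which was higher with the combination. With the replicate as a block Pdgfrb and the neuron marker Stmn2 were lower in each treatment, and Ngfr was also higher with quetiapine. In cultures measured as a whole, a change in the number of cells of a type and a change in RNA per cell cannot be told apart. As a sign of RNA integrity, the 3′ end of actin read 0.643 to 0.665 above its 5′ end in control at 96 hours, 0.674 to 0.766 with T3, 0.601 to 0.723 with quetiapine and 0.704 to 0.768 with the combination. T3 and combination arrays thus lay above those of control, and the part of this in the results was not tested.

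Gpr37 encodes a G protein-coupled receptor that is enriched in oligodendrocytes and is known to restrain their maturation. Its log2 expression at 48 hours in replicates 1, 2 and 3 was 6.15, 6.06 and 6.94 in control, 6.80, 7.14 and 8.96 with T3, 6.65, 6.67 and 8.79 with quetiapine, and 6.81, 7.26 and 9.44 with the combination. Replicate 3 was the highest array of each group, and the treated arrays overlapped the control arrays. Within every replicate the treated culture lay above its own control, by 0.65 to 2.02 with T3, 0.50 to 1.86 for quetiapine, and 0.66 to 2.50 for the combination.

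At 96 hours Gpr37 stood at 8.05, 8.43 and 8.55 in control, 10.99, 11.69 and 12.03 with T3, 11.08, 11.42 and 11.83 with quetiapine, and 11.69, 12.43 and 12.64 with the combination. Every treated array lay above every control array, and the 3 treated groups overlapped. The difference from control within replicates was 3.22 ± 0.27 (SD, n = 3) with T3, 3.10 ± 0.16 for quetiapine, and 3.91 ± 0.24 for the combination. Gpr37 also had the greatest gain with time in control among the 7 genes, 1.96 from 48 to 96 hours.

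**Figure D1:**
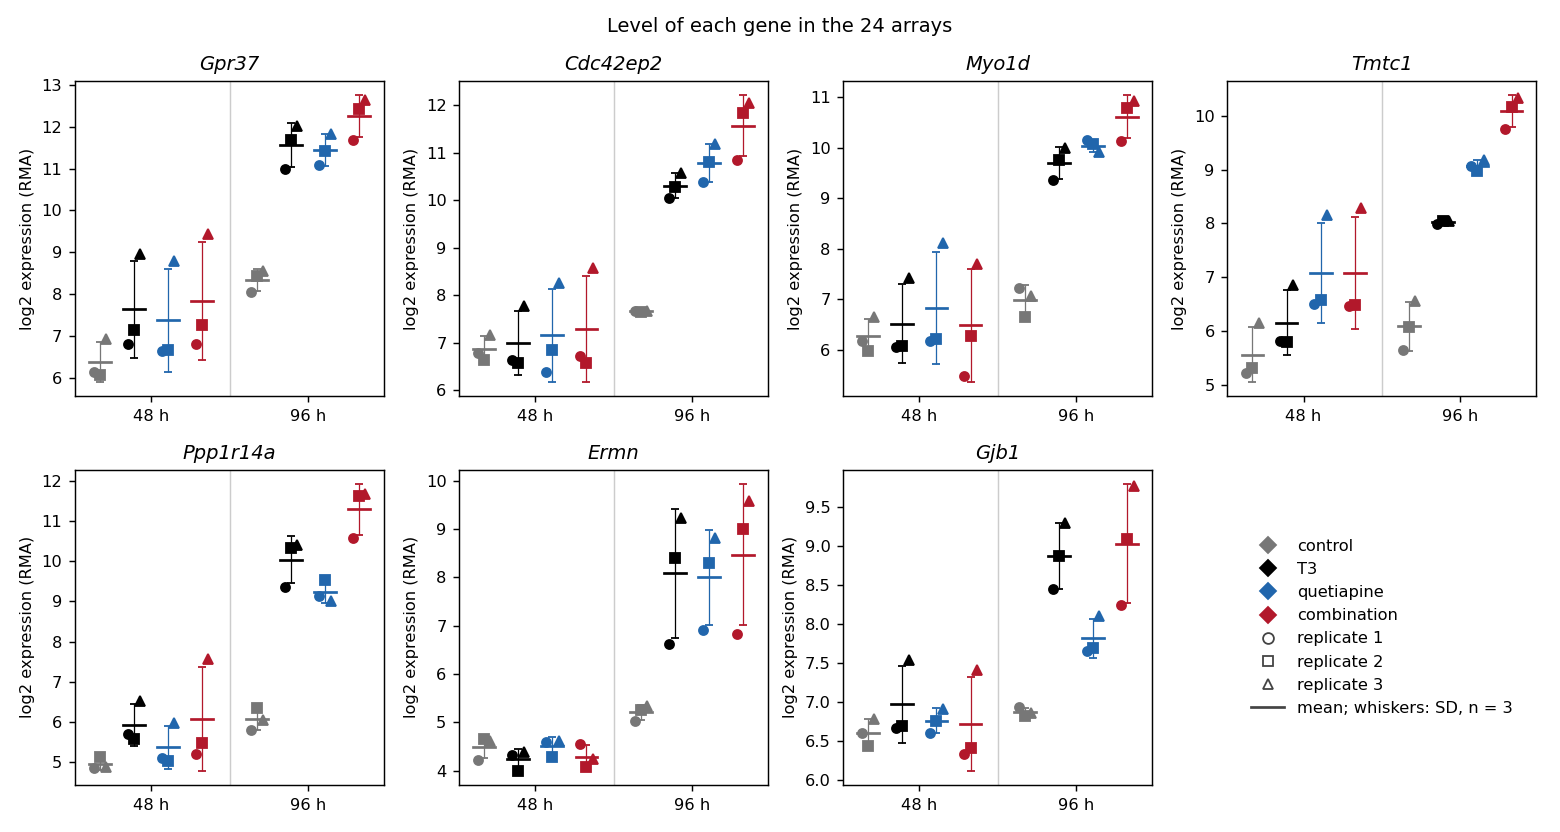
Log2 expression of each gene (vertical axis) in every array of the 4 treatments at 48 and 96 hours (horizontal axis), with a marker shape for each replicate, horizontal lines for the group means and whiskers for the SD (n = 3). At 96 hours each treated array of the 7 genes sits above its 3 control arrays, while at 48 hours the groups largely overlap.

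Cdc42ep2 encodes an effector that binds the GTPase Cdc42 and organises septins. At 48 hours it read 6.79, 6.63 and 7.17 in control, 6.63, 6.58 and 7.76 with T3, 6.37, 6.83 and 8.26 with quetiapine, and 6.72, 6.57 and 8.57 with the combination. Only the arrays of replicate 3 stood clear of control with the combination: the difference there was 1.40, against −0.07 and −0.06 in replicates 1 and 2. At 96 hours control was nearly constant at 7.66, 7.65 and 7.67, and the levels were 10.05, 10.27 and 10.57 with T3, 10.38, 10.80 and 11.17 with quetiapine, and 10.84, 11.82 and 12.04 with the combination. The combination arrays all lay above the T3 arrays and overlapped the quetiapine arrays. Differences from control were 2.64 ± 0.26, 3.12 ± 0.39 and 3.91 ± 0.64 (SD, n = 3) in the same order.

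Myo1d encodes a class I myosin, a single-headed motor that links actin to membranes. Its brighter probe set, 1388917_at, read 6.19, 5.99 and 6.65 in control at 48 hours, 6.06, 6.08 and 7.43 with T3, 6.17, 6.21 and 8.12 with quetiapine, and 5.49, 6.28 and 7.70 with the combination. No treatment had all 3 of its arrays above control at that time. At 96 hours the values were 7.23, 6.66 and 7.06 in control, 9.35, 9.76 and 9.99 with T3, 10.15, 10.07 and 9.91 with quetiapine, and 10.13, 10.78 and 10.93 with the combination. The T3 and quetiapine arrays overlapped, and differences from control were 2.72 ± 0.52, 3.06 ± 0.31 and 3.63 ± 0.65 (SD, n = 3). The dimmer probe set, 1369779_at, differed from control by 0.59, 0.79 and 1.42, in the same direction and by less.

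Ppp1r14a encodes CPI-17, an inhibitor of myosin light chain phosphatase. It read 4.86, 5.14 and 4.88 in control at 48 hours, 5.70, 5.57 and 6.53 with T3, 5.10, 5.03 and 5.98 with quetiapine, and 5.20, 5.49 and 7.56 with the combination. The T3 and combination arrays lay above all control arrays, and the quetiapine arrays did not. At 96 hours the levels were 5.82, 6.36 and 6.06 in control, 9.37, 10.32 and 10.41 with T3, 9.14, 9.53 and 9.01 with quetiapine, and 10.56, 11.63 and 11.67 with the combination. The combination arrays lay above those of either compound alone. Its differences from control were 3.96 ± 0.40, 3.15 ± 0.19 and 5.21 ± 0.43 (SD, n = 3), the last of which is a 37.0-fold difference and the greatest of the 7 genes.

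Ermn encodes ermin, an actin-binding protein of myelinating oligodendrocytes. It was dim at 48 hours, with 4.23, 4.65 and 4.61 in control, 4.33, 4.00 and 4.38 with T3, 4.60, 4.29 and 4.62 with quetiapine, and 4.56, 4.07 and 4.24 with the combination. All 12 of these values fell below 4.88, the 0.25 quantile of the mean levels of all probe sets. At 96 hours it read 5.02, 5.26 and 5.34 in control, 6.62, 8.41 and 9.23 with T3, 6.91, 8.29 and 8.82 with quetiapine, and 6.82, 9.01 and 9.59 with the combination. The replicates differed widely: the difference from control was 1.60 to 3.89 with T3, 1.88 to 3.48 for quetiapine, and 1.80 to 4.25 for the combination, with replicate 1 the lowest in each. The other 2 probe sets gave the same direction, with mean differences of 2.68, 2.82 and 3.31 at 1385547_at and 1.25, 1.29 and 2.05 at 1395447_at.

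Tmtc1 encodes a protein of the endoplasmic reticulum that attaches mannose to cadherins. Its 48 hour levels were 5.23, 5.32 and 6.15 in control, 5.82, 5.79 and 6.85 with T3, 6.50, 6.58 and 8.16 with quetiapine, and 6.47, 6.48 and 8.28 with the combination. Quetiapine and combination arrays lay above every control array already at this time. At 96 hours it read 5.64, 6.08 and 6.55 in control, 7.99, 8.04 and 8.05 with T3, 9.07, 8.97 and 9.17 with quetiapine, and 9.76, 10.16 and 10.34 with the combination. The 4 groups did not overlap and stood in the order control, T3, quetiapine, combination. Quetiapine exceeded T3 by 1.05, and the combination exceeded quetiapine by 1.01.

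Gjb1 encodes a connexin, a gap junction protein of oligodendrocytes and Schwann cells. At 48 hours it read 6.60, 6.43 and 6.78 in control, 6.67, 6.69 and 7.54 with T3, 6.60, 6.76 and 6.91 with quetiapine, and 6.33, 6.41 and 7.41 with the combination. At 96 hours control was 6.93, 6.82 and 6.85, T3 8.45, 8.87 and 9.29, quetiapine 7.65, 7.70 and 8.10, and the combination 8.24, 9.09 and 9.76. The quetiapine arrays lay between those of control and T3 without touching either, and T3 and the combination overlapped. Gjb1 thus stood 1.06 lower with quetiapine than with T3, opposite in sign to Tmtc1.

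At 48 hours, on arrays that the choice of the genes did not use as far as its stated reason goes, limma called 0 of the 7 genes in any comparison when the replicate number was left out of the fit (adjusted p under 0.05 over 31042 probe sets and a fold over 1.5). The share of all probe sets called was 0.57% as higher and 0.68% in either direction with T3, 0.0773% and 0.106% with quetiapine, and 1.3% and 2.58% with the combination. At an unadjusted p under 0.05 the count was 0 with T3, 1 for quetiapine, and 1 for the combination, Tmtc1 in each case. Tmtc1 differed from control by 1.51 with a standard error of 0.56 in either group, with adjusted p of 0.546 for quetiapine and 0.154 for the combination. For Gpr37 and the combination the estimate was 1.45 with a 95% interval of −0.29 to 3.19 and an adjusted p of 0.336. The lowest adjusted p of the 7 genes with T3 was 0.502, for Ppp1r14a.

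The replicate number pairs the arrays, since each replicate supplied all conditions, and with the replicate as a block calls appeared. The share of all probe sets called as higher in that fit was 1.7% with T3, 0.464% for quetiapine, and 2.22% for the combination. Gpr37 rose with T3 (adjusted p = 0.0150) and with the combination (adjusted p = 0.0034). Tmtc1 rose with quetiapine (adjusted p = 0.0025) and with the combination (adjusted p = 0.00023), and Ppp1r14a rose with the combination (adjusted p = 0.0450). In the same fit Tmtc1 exceeded its T3 level by 0.92 under quetiapine (adjusted p = 0.0066) and by 0.92 under the combination (adjusted p = 0.0347), where 0.641% and 0.151% of all probe sets were called as higher. Without the block these comparisons gave 0 calls among the 7 genes, against 0.999% of all probe sets in either direction (0.226% as higher) and 0.0193%. The combination against quetiapine and the interaction had no call in either fit, against 0.657% (0.0999% as lower) and 0% of all probe sets without the block. With the block the shares were 1.51% as higher and 0.548% as lower for the combination against quetiapine, and 0% for the interaction. In the fit without the block, no member of the 7 had an unadjusted p under 0.05 in these 4 comparisons.

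Cdc42ep2, Myo1d, Ermn and Gjb1 were not called at 48 hours in either fit. Their estimates against control ranged from −0.26 (Ermn with T3) to 0.56 (Myo1d with quetiapine). For Gjb1 with T3 the 95% interval was −0.27 to 1.00, and for Myo1d with quetiapine −0.83 to 1.95, so a doubling lay inside the intervals of both. With the replicate as a block these were 0.0066 to 0.72 and −0.024 to 1.15, and a doubling then lay outside the interval for Gjb1. Over the 7 genes the median difference from control was 0.36 with T3, 0.41 for quetiapine, and 0.43 for the combination, where the median of all probe sets was 0.00018, 0.0084 and 0.018. These medians include the arrays of replicate 3. Without those arrays the combination estimates were positive for Tmtc1 (1.20), Gpr37 (0.93) and Ppp1r14a (0.34). They were negative for Myo1d (−0.20), Gjb1 (−0.14), Ermn (−0.12) and Cdc42ep2 (−0.063). Estimates ran from −0.27 (Ermn) to 0.87 (Gpr37) with T3 and from −0.11 (Cdc42ep2) to 1.27 (Tmtc1) with quetiapine. The medians do not give a rise shared by the 7 genes.

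**Figure D2:**
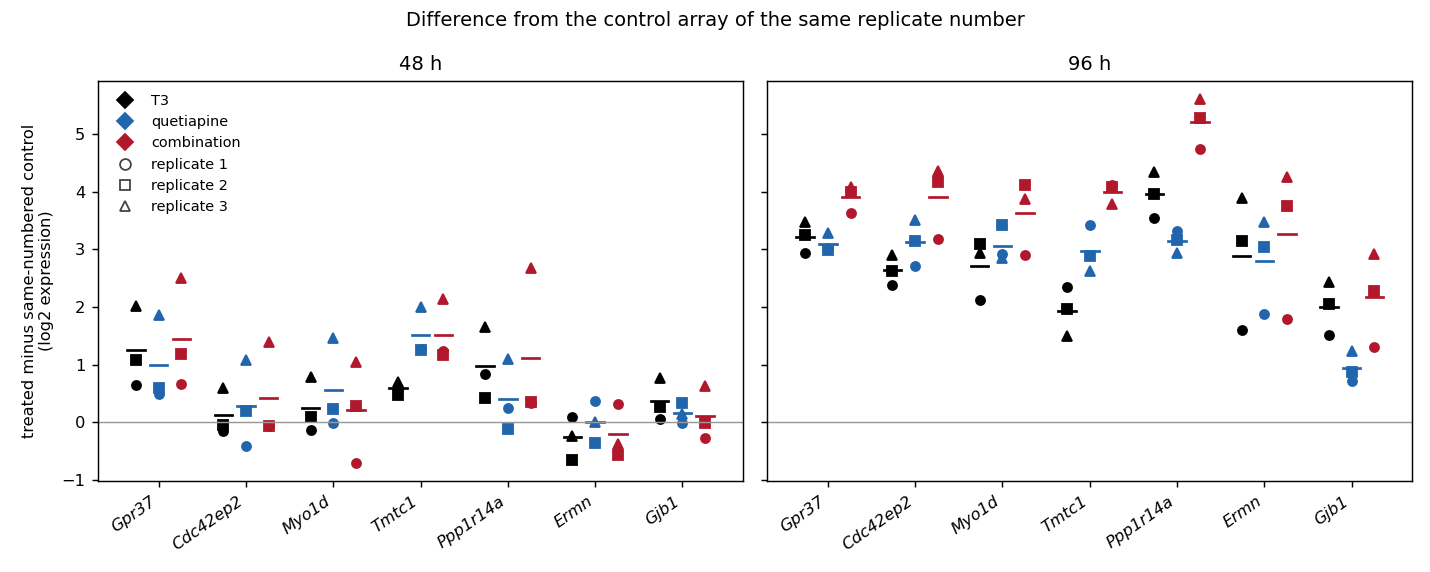
Log2 difference between each treated culture and the control culture of the same replicate (vertical axis) for the 7 genes at 48 and 96 hours, with a marker shape for each of the 3 replicates and a line for their mean. Replicate 3 carries most of the 48 hour rise of Cdc42ep2 and Myo1d, and of Ppp1r14a with the combination. At 96 hours all differences lie above 0.

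Replicate 3 stood above the others at 48 hours. It was the highest array in all 4 groups for 5 of the 7 genes, Gpr37, Cdc42ep2, Myo1d, Tmtc1 and Gjb1, where 8.66% of all probe sets had this pattern. For Gpr37 it exceeded the mean of replicates 1 and 2 by 0.83 in control, 1.99 with T3, 2.13 for quetiapine, and 2.40 for the combination. The mean of the mature oligodendrocyte markers went the same way in treated cultures, with 11.24, 11.36 and 12.04 with T3, 10.80, 10.84 and 11.48 with quetiapine, and 11.35, 11.53 and 12.39 with the combination in replicates 1, 2 and 3. In control these were 10.69, 10.55 and 10.69. Its part in the result was not tested. With the 4 arrays of replicate 3 left out together and no block, Tmtc1 was called with quetiapine (1.27, adjusted p = 0.0249), with the combination (1.20, adjusted p = 0.0026) and against T3 with quetiapine (0.73, adjusted p = 0.0138), while Gpr37 and Ppp1r14a had no call. At 96 hours replicate 3 was highest in all 4 groups for 4 of the 7 genes, against 6.18% of all probe sets.

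Without a test, the counts of genes whose arrays did not overlap at 48 hours were 1 for T3 (Ppp1r14a), 1 for quetiapine (Tmtc1) and 2 for the combination (Tmtc1 and Ppp1r14a), beside 8.33%, 6.59% and 13.6% of all probe sets that lay above control. No gene of the 7 lay wholly below control with T3 (8.44% of probe sets), or apart from another treatment: the shares of probe sets were 8.28% above and 7.51% below for quetiapine against T3, 6.31% and 4.57% for the combination against T3, and 8.03% and 7.47% for the combination against quetiapine. At 96 hours all 7 genes lay above control in each treatment, beside 13.2% of probe sets with T3, 12.8% for quetiapine, and 19.6% for the combination. Nothing is read from these counts, because the rule used those arrays. The median difference from control of the 7 genes at 96 hours was 2.72 with T3, 3.06 for quetiapine, and 3.91 for the combination, and Gjb1 with quetiapine had the smallest, 0.95. All 3 comparisons share the control arrays.

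In control the levels moved less between the times than they differed between control and each treatment at 96 hours. From 48 to 96 hours in control the means differed by 1.96 for Gpr37, 1.12 for Ppp1r14a, 0.80 for Cdc42ep2, 0.71 for Myo1d, 0.71 for Ermn, 0.53 for Tmtc1 and 0.26 for Gjb1. The arrays of the 2 times did not overlap for 6 of the 7 genes, Tmtc1 being the exception, beside 4.92% of all probe sets. In the treated cultures all 7 were higher at 96 hours without overlap, beside 9.97% with T3, 9.81% for quetiapine, and 15.7% for the combination. With the combination the gain with time ran from 2.31 for Gjb1 to 5.20 for Ppp1r14a. Because some genes were chosen for large rises at 96 hours, nothing is read from these differences and counts.

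For 5 of the 7 genes the T3 and quetiapine arrays overlapped at 96 hours. Quetiapine less T3 gave 1.05 for Tmtc1 and −1.06 for Gjb1, the 2 genes whose arrays did not overlap, beside 12.6% of probe sets that lay above and 9.08% that lay below. The other 5 ranged from −0.81 for Ppp1r14a to 0.49 for Cdc42ep2. The combination lay above T3 without overlap for 4 genes, Cdc42ep2, Myo1d, Tmtc1 and Ppp1r14a (11.5% of all probe sets), and above quetiapine for 3, Tmtc1, Ppp1r14a and Gjb1 (12.8%). Tmtc1 and Ppp1r14a were in both groups. No result is drawn from these counts, since some genes were chosen for large rises on the same arrays.

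On the log2 scale the combination fell short of the sum of the single differences for all 7 genes at 96 hours, with interactions from −0.79 for Gjb1 to −2.41 for Gpr37 at the probe sets that stood for them. The dimmer probe set of Myo1d gave 0.045, and the other 2 of Ermn gave −2.20 and −0.48. On the linear scale, where the rises of the single compounds are added to the control level, the picture depended on the gene. The measured combination was 1.58 times this sum for Ppp1r14a, 1.49 times for Tmtc1 and 1.08 times for Cdc42ep2. It was 0.908 of the sum for Gjb1, 0.889 for Myo1d, 0.888 for Gpr37 and 0.724 for Ermn. Other probe sets disagreed for both Myo1d and Ermn: 1369779_at of Myo1d gave 1.20, and of Ermn 1395447_at gave 1.09 and 1385547_at 0.791, so the side of 1 on which these genes fell depended on the probe set. These ratios come from group means and no spread was computed for them. Between replicates the combination differed from control by 1.31 to 2.91 for Gjb1 and by 3.18 to 4.37 for Cdc42ep2. That range is not the spread of the ratio, in which T3 and quetiapine also vary between replicates. With no spread computed, the side of 1 is not settled for ratios near 1. For Ppp1r14a the combination reached 37.0-fold of control, where T3 gave 15.5-fold, quetiapine 8.85-fold and their added rises 23.4-fold.

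**Figure D3:**
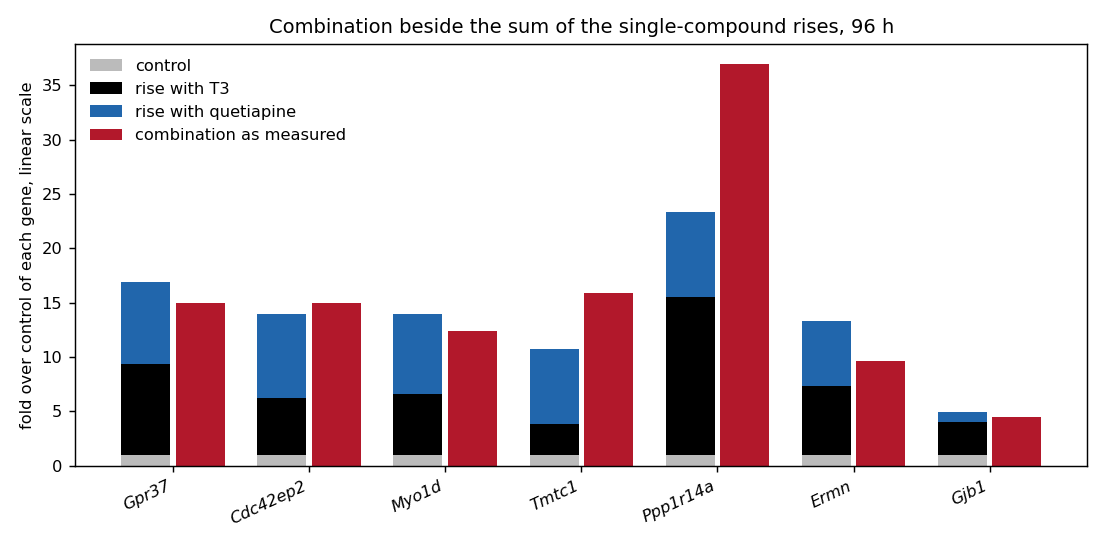
Linear expression at 96 hours as a fold of each gene's own control (vertical axis), with the control and the rises of T3 and quetiapine stacked in the left bar and the measured combination in the right bar, from group means of 3 arrays at the probe set that stood for each gene. The right bar is taller for Ppp1r14a, Tmtc1 and Cdc42ep2 and shorter for Gpr37, Myo1d, Ermn and Gjb1. The bars carry no spread, so small differences in height are not settled.

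To set the 7 genes among their families, 9 lists of related genes were tested on both times, with 115 of 135 named genes measured. The lists were chosen with earlier results of these data known. Their counts and medians are therefore a description, and no result about a family is drawn from them. At 48 hours 2 related genes rose with T3 and 0 fell, 0 rose and 1 fell with quetiapine, and 4 rose and 5 fell with the combination. The call as lower covered 0.11% of all probe sets with T3, 0.029% for quetiapine, and 1.28% for the combination. With the replicate block these counts were 14 and 2, 2 and 4, and 13 and 10, where that fit called 1.7% and 0.622% of all probe sets as higher and lower with T3, 0.464% and 0.509% with quetiapine, and 2.22% and 2.82% with the combination. At 96 hours 17 rose and 8 fell with T3, 9 rose and 3 fell with quetiapine, and 24 rose and 19 fell with the combination. The same calls at 96 hours covered 3.35% and 2.48% of all probe sets with T3, 2.14% and 1.15% with quetiapine, and 6.91% and 8.37% with the combination, and the block raised the quetiapine counts to 15 and 10, where it called 2.97% and 3.49%.

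**Figure D4:**
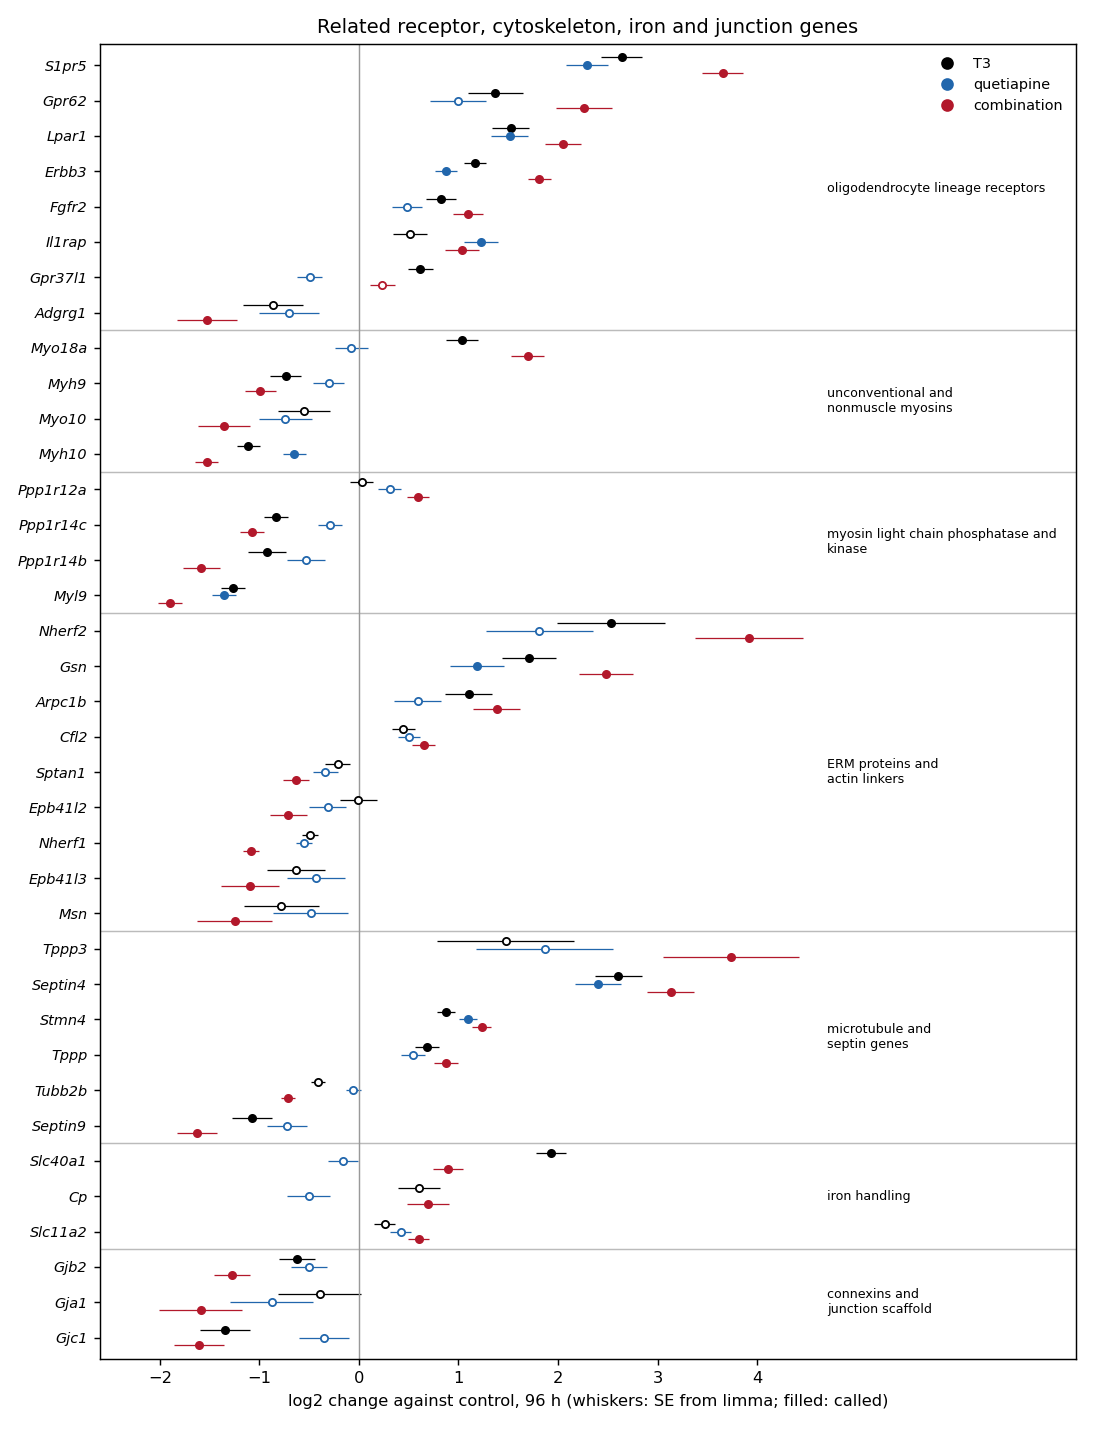
Log2 change against control at 96 hours (horizontal axis) of the related genes called in at least 1 treatment, by family for the 7 lists shown, with whiskers for limma's standard error from 3 arrays a group and filled points for calls. Most receptors at the top lie to the right of 0, while the called myosin, phosphatase and connexin genes lie mostly to the left.

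Of 10 measured receptors of the oligodendrocyte lineage, 6 rose with T3, 4 for quetiapine, and 6 for the combination at 96 hours, and 1 fell with the combination. The list's median change was 0.72, 0.68 and 1.07, where the median over all probe sets was −0.0079, 0.0023 and 0.016. S1pr5, a sphingosine-1-phosphate receptor of mature oligodendrocytes, went from 7.44 ± 0.21 in control to 10.08 ± 0.25 with T3, 9.73 ± 0.38 for quetiapine, and 11.10 ± 0.29 for the combination (SD, n = 3). Lpar1, a lysophosphatidic acid receptor, rose by 1.52, 1.52 and 2.05. Erbb3, a neuregulin receptor, rose by 1.17, 0.88 and 1.81 at 96 hours, and was already higher at 48 hours by 0.77 with T3 and 1.22 with the combination. The orphan receptor Gpr62 rose by 1.37 with T3 and 2.26 with the combination, and its 1.00 with quetiapine had a limma adjusted p of 0.0629, or 0.0033 with the replicate block. Adgrg1, an adhesion receptor, was the one that fell, and with the block it was lower with T3 and quetiapine too. Gpr37l1, the close relative of Gpr37 and a receptor known from astrocytes, was named after its values were seen: it rose by 0.62 with T3, and the combination gave 0.24 with a limma adjusted p of 0.195.

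Cdc42ep1, a relative of Cdc42ep2, rose at 96 hours from 7.82 ± 0.38 in control (SD, n = 3) by 1.61 with T3, 1.75 for quetiapine, and 2.55 for the combination, and at 48 hours it differed from control by 0.00078, −0.01 and 0.11. Pak1, a kinase activated by Cdc42 and Rac, rose by 2.26 with the combination at 96 hours.

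Most myosins other than Myo1d were not called, and their median changes at 96 hours were −0.066, −0.060 and −0.061. Of 15 measured, 2 fell with T3, 1 for quetiapine, and 3 for the combination at 96 hours, and 1 rose, in the T3 and combination cultures. Myh10, a nonmuscle myosin II heavy chain, changed by −1.11, −0.65 and −1.53, all past the test, and its relative Myh9 changed by −0.73 with T3 and −0.99 with the combination. Myo10, a motor of filopodia, fell by 1.36 with the combination, and with the block also with quetiapine (−0.74). Myo18a was the one that rose, by 1.69 with the combination and 1.04 with T3. At 48 hours Myh10 fell with the combination by 0.85.

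Genes that act with Ppp1r14a in the control of myosin light chain went both ways, with median changes of −0.076, −0.066 and −0.15 at 96 hours. Of 13 measured genes, 3 fell with T3, 1 for quetiapine, and 3 for the combination at 96 hours, and 1 rose, with the combination. Ppp1r14b and Ppp1r14c, paralogs in the same family of phosphatase inhibitors, fell, with changes of −0.92 and −0.83 under T3 and of −1.58 and −1.07 under the combination. Myl9, a myosin regulatory light chain, fell from 8.17 ± 0.08 in control to 6.90 ± 0.11 with T3, 6.81 ± 0.21 for quetiapine, and 6.27 ± 0.19 for the combination (SD, n = 3). Ppp1r12a, the targeting subunit of the phosphatase, rose by 0.59 with the combination. The largest differences of this list were those of Mylk, the myosin light chain kinase, named after its values were seen, at 2.00, 1.92 and 2.13. Its replicates were widely spread (SD 0.93, 1.26 and 1.43, n = 3), and limma called it in none of the treatments without the replicate block and in all 3 with it. At 48 hours Myl9 changed by −1.07 and Ppp1r14b by −0.66 with the combination.

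Of 17 measured actin linkers related to ermin, 3 rose with T3, 1 for quetiapine, and 4 for the combination at 96 hours, and 5 fell with the combination. Nherf2, a scaffold that binds ERM proteins, rose by 2.53 with T3 and 3.92 with the combination, and its 1.81 with quetiapine had a limma adjusted p of 0.0792, or 0.0044 with the block. The block raised the rises with quetiapine in this list to 3 and gave 2 falls with T3 and 1 with quetiapine. Gsn, the actin-severing protein gelsolin, rose by 1.71, 1.19 and 2.48. Arpc1b, a subunit of the Arp2/3 complex, rose by 1.10 with T3 and 1.38 with the combination. Msn, the ERM protein moesin, fell by 1.25 with the combination.

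Of 17 microtubule and septin genes, 3 rose with T3, 2 for quetiapine, and 4 for the combination at 96 hours, and 1, 0 and 2 fell. Septin4 rose from 9.78 ± 0.32 in control to 12.39 ± 0.18, 12.18 ± 0.30 and 12.91 ± 0.45 (SD, n = 3), and Septin9 changed by −1.07 with T3 and −1.63 with the combination. Tppp3, of the tubulin polymerisation promoting family, rose by 3.74 with the combination with a wide spread (SD 1.22), and with the block it was also called with T3 and quetiapine, and the fall of Septin9 with quetiapine. Stmn4, a stathmin that binds tubulin, rose by 0.88, 1.10 and 1.23.

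Around transferrin, 11 iron genes were measured: 1 rose with T3, 0 for quetiapine, and 3 for the combination at 96 hours, and none fell in limma's test. Slc40a1, the iron exporter ferroportin, rose by 1.93 with T3 and 0.90 with the combination, and quetiapine gave −0.16 (limma adjusted p = 0.637). Cp, the ferroxidase ceruloplasmin, rose by 0.70 and Slc11a2, an iron importer, by 0.60 with the combination. With the block Cp was also higher with T3 (0.61), and Steap3, a ferrireductase, was lower with quetiapine (−0.60). Around Gjb1, 10 connexin and junction genes were measured and none rose in limma's test. Those that fell were Gjc1 (−1.35) and Gjb2 (−0.62) with T3, and with the combination Gjc1 (−1.61), Gjb2 (−1.27) and Gja1 (−1.59), the main connexin of astrocytes, which the block also called with quetiapine (−0.88). The 3 measured O-mannosyltransferases related to Tmtc1 had no call, and their largest changes at 96 hours were 0.25 for Pomt1 and −0.13 for Tmtc3, both with the combination.

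Across the 24 arrays the 21 pairs of the 7 genes had Pearson's r of 0.80 to 0.99, with a median of 0.92. Nothing is read from this, because the arrays at 96 hours chose the genes and the arrays share 8 groups and 3 preparations. On the 12 arrays at 48 hours the 6 pairs with Ermn, which was dim there, had r of −0.23 to 0.11, and the other 15 pairs 0.61 to 0.92. Replicate 3 was the highest array of every group there for Gpr37, Cdc42ep2, Myo1d, Tmtc1 and Gjb1. Its part in these r values was not tested, and nothing is read from them. Over 14216 other genes, the profile most like Gpr37 was that of Septin4 (r = 0.981), followed by Cdc42ep2 (0.980) and Myo1d (0.978). For Cdc42ep2 it was Myo1d (0.988), then Mapk8ip1 (0.984) and Usp30 (0.984), and for Myo1d it was Cdc42ep2, then Slc12a2 (0.987) and Ptprd (0.983). Ppp1r14a was nearest to Mapk8ip1 (0.982), Mast3 (0.981) and Tmem151a (0.981). Ermn was nearest to Ttll7 (0.991), Plekhh1 (0.990) and Jcad (0.981).

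Tmtc1 and Gjb1 had lower best values. Tmtc1 was nearest to Ttll5 (0.964), Josd2 (0.964) and Tmem141 (0.963), and Gjb1 to Ddrgk1 (0.964), Tpst2 (0.964) and Atp11a (0.963). Many genes lay close to each member, and the order among them was not stable: of the 21 nearest genes, 2 stayed in the top 3 by Spearman's rank correlation and 5 once the mean of the same replicate and time was taken off.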

How the data were processed

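The deposited values were log2 expression, made by the authors with RMA (background correction, quantile normalization and a summary per probe set), and were used as they stand. The submitters' processing notes name RMA and limma, with versions not given in the sources used here. Raw signals and detection calls were not used here. The members and the lists were chosen with earlier results of these data known. GEO names the species Rattus rattus, and the array's annotation gave the symbols.

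After 57 control probe sets were left out, 31042 of 31099 were tested. Of these, 20826 had 1 symbol, 436 several and 9780 none. All single-symbol probe sets of a gene were read, and the one with the highest mean stood for it. Limma 3.58.1 in R 4.3.3 modelled each time separately from its 12 arrays as 4 group means, and Benjamini and Hochberg's adjustment ran over every probe set tested. A call needed an adjusted p under 0.05 and a fold over 1.5. Group and within-replicate SDs were computed in Python 3.11.15. Tested on simulated data for T3 against control at 48 hours over 31042 probe sets, the fit recovered 84.0% of 200 changes of 1 on the log2 scale and 97.5% of 200 changes of 2. The changed probe sets were drawn at random, and the simulated noise was independent between arrays, without a shared replicate. In the data the standard error of this comparison ran from 0.16 for Ermn to 0.79 for Gpr37. The shares recovered therefore do not say how often such changes would be called in the members. The number of arrays limits the precision.

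The design text states that each replicate supplied every condition, which is the source of the pairing. Deviations from group means correlated at 0.430 to 0.777 between arrays of the same number at 48 hours (18 pairs) and at −0.681 to −0.0048 between different numbers (36 pairs). At 96 hours these were 0.309 to 0.690 and −0.583 to 0.243.

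Named genes were the members, the 3 genes with the highest Pearson's r to each, and up to 4 called genes with the largest change of each related list, or the 2 largest where none was called, and all marker genes. Exceptions are marked where they appear. The counts and some genes of 1 related list are not reported here, though the totals over all lists include it. Alternatives were the replicate block, 1 fit over 24 arrays, arrays centred on their medians, no limit on the fold, a variance trend, dim probe sets left out, the mean of a gene's probe sets, another measure of likeness and each array left out.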

Additional observations from a re-analysis of the deposited data

How the results depend on the processing

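With the replicate block, the pairing gave 1 called gene of the 7 for T3 and for quetiapine at 48 hours, 3 for the combination, and 1 each for quetiapine and for the combination against T3. The related genes then had 14 rises and 2 falls with T3, 2 and 4 with quetiapine and 13 and 10 with the combination at 48 hours, and 15 and 10 with quetiapine at 96 hours. The block moved no other total of members or of all related genes by more than 1.5 times, though counts within single lists did move. Centring the arrays gave 1 rise with T3 and 0 falls with quetiapine at 48 hours, and the mean of a gene's probe sets gave 0 such falls and a member median of 2.27 with T3 at 96 hours. One fit over 24 arrays gave 1 fall with T3 at 48 hours and 6 with quetiapine at 96 hours. With no limit on the fold, falls were 1 with T3 and 12 under the combination at 48 hours, 13 with T3 and 5 with quetiapine at 96 hours, and rises with quetiapine at 96 hours were 14.

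Without the 4 arrays of replicate 3, an alternative chosen after seeing the data, 1 member was called with quetiapine, 1 with the combination and 1 for quetiapine against T3 at 48 hours. Falls of related genes at 48 hours were then 0 with quetiapine and 3 with the combination. At 96 hours 8 rose and 3 fell with T3, and 1 fell with quetiapine. Signs turned for uncalled estimates at 48 hours: Cdc42ep2 to −0.10 with T3, −0.11 for quetiapine and −0.063 for the combination, Myo1d to −0.018 with T3 and −0.20 with the combination, and Gjb1 to −0.14 with the combination.

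Leaving out single arrays in the fit without the block, 0 members were called at 48 hours throughout. The calls made with the block were not checked in this way. Related genes at 48 hours ranged over 1 to 2 rises and 0 to 1 falls with T3, 0 rises and 0 to 2 falls with quetiapine, and 2 to 5 rises and 4 to 7 falls with the combination. The single fall with quetiapine, Mapt, was lost without any 1 of 10 arrays, and without quetiapine replicate 1 or combination replicate 3 the falls numbered 1 and 2. Falls with quetiapine at 96 hours ranged over 2 to 6, the highest without control replicate 1. Uncalled 48 hour estimates changed sign in this way: Cdc42ep2 from −0.26 to 0.33 with T3, −0.26 to 0.68 with quetiapine and −0.22 to 0.78 with the combination. Myo1d ran from −0.20 to 0.48, −0.080 to 0.89 and −0.39 to 0.72, Ermn from −0.13 to 0.11 with quetiapine, and Gjb1 from −0.23 to 0.31 with the combination. The array behind each lower end was replicate 3 of the treated group, except for Ermn, where it was control replicate 1. The nearest genes shared 2 of 21 names by Spearman's rank correlation and 5 within replicates. For all of these changes the cause was not tested. Dim levels, such as those of Ermn at 48 hours, limit what the arrays can show.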

Other observations

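Some marker and family genes differed between the compounds in value or in call, and the difference between compounds was not tested for them. For Slc1a2, whose rises with the other treatments at 96 hours are given above, quetiapine gave −0.59. Ngfr, a neurotrophin receptor, rose by 2.54 with the combination, and T3 gave 1.33 and quetiapine 1.68, which limma did not call without the replicate block. With it, Ngfr was called with quetiapine (adjusted p = 0.0422) and not with T3 (adjusted p = 0.0774). Both values had the same sign, so the unlike calls do not set the compounds apart for Ngfr. Mapt, the microtubule protein tau, named after its values were seen, fell by 0.92 with quetiapine at 48 hours (limma adjusted p = 0.039, a call lost without any 1 of 10 arrays), and at 96 hours quetiapine gave −0.36 (limma adjusted p = 0.462).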
